A study of Mus musculus with 9 samples.

Results

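The genes described here are the heat shock protein and J-domain chaperones of the mouse. They are the protein-coding genes whose symbol starts with Hsp followed by a, b, d, e, h or 90, with Dnaj, or with Cct and a digit, without Hspg2, together with the heat shock factors Hsf1 and Hsf2. The rule found 84 genes among the 55487 gene IDs of the files, and 71 of them had enough counts to enter the test over 13374 genes. The 84 were 14 genes of the HSP70 family, 3 of the HSP90 family, 7 small heat shock proteins, 2 of the mitochondrial chaperonin, 7 of the cytosolic chaperonin CCT, 45 J-domain genes, 2 heat shock factors and 4 others. The 4 others (Cct8l1, Hspb11, Hspbap1 and Hspbp1) entered by the prefix alone and were assigned to none of these families.

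The RNA was that of naive CD4+ T cells (helper T cells that have not met their antigen) of the spleen, in wild-type C57BL6/J animals. In 3 libraries the mice had no treatment, in 3 they had received an antibody against IL-1b (an inflammatory cytokine) for 10 days, and in 3 they had received MCC950 for 10 days, a small molecule that inhibits the inflammasome sensor NLRP3. The labels give no age, sex, sort or gate, and do not name a vehicle or control antibody for the untreated mice. Nor do they tie the 3 libraries of a group to 3 animals, so each p-value speaks of variation among libraries and may hold technical variation alone. Both comparisons with untreated use the same 3 untreated libraries.

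Proteins of the HSP70 family bind exposed stretches of unfolded protein in cycles driven by ATP. J-domain proteins deliver clients to them and start the cycle, nucleotide exchange factors end it, and HSP90 takes over partly folded clients such as kinases. Chaperonins fold proteins inside a closed chamber, and small heat shock proteins hold unfolded ones. HSF1 raises many of these genes when unfolded protein builds up, by binding heat shock elements in their promoters. The same machinery has dedicated members in the endoplasmic reticulum (ER) and in mitochondria.

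The libraries held 14775375 to 21394797 expected counts each. The TMM (trimmed mean of M-values) factors that scale the libraries were 0.945 to 0.947 in the untreated group and 1.02 to 1.04 in the treated groups. The 13 markers of CD4 T cells summed to between 8416 and 8486 CPM (counts scaled to a common total per library with the TMM factor) in untreated, 8207 and 8245 with the antibody and 7771 and 7805 with MCC950, and none was at 0 in any group. At an adjusted p under 0.05 (edgeR), 4 of these 13 were lower and 3 higher with the antibody. With MCC950 6 were lower and 4 higher. Of all tested genes, 18.5% were lower and 15.4% higher with the antibody, and 19.1% and 17.7% with MCC950. Summed markers of other cells were higher in the treated groups, though not each marker. Of 10 tested CD8 and NK markers, 5 were higher and 1 (Prf1) lower with the antibody, and 4 higher with MCC950. Of 7 tested monocyte, macrophage and dendritic cell markers these numbers were 4, 1 (Cd68) and 4. All 10 tested neutrophil markers were higher with the antibody and 9 with MCC950. Of 5 tested red cell and platelet markers, 4 were higher with each agent. The 20 B cell markers summed to 327 to 347 CPM in untreated, 505 to 523 with the antibody and 495 to 520 with MCC950, and none was at 0. Ighm held most of that sum (means of 306, 388 and 366 CPM), and 18 of the 20 were at least 2-fold higher with each agent, with a median log2 fold change of 2.16 with the antibody and 2.44 with MCC950. Of all tested genes 3.30% were at least 2-fold higher with the antibody and 2.84% with MCC950. The 15 neutrophil markers summed to 1.10 to 1.34, 41.0 to 42.2 and 19.6 to 23.0 CPM, with 10 of the 15 at 0 in the untreated group. The 14 CD8 and NK cell markers summed to 68.6 to 75.5, 99.8 to 109 and 103 to 108 CPM, the 13 monocyte, macrophage and dendritic cell markers to 8.23 to 10.2, 19.2 to 22.5 and 20.2 to 23.8 CPM, and the 10 red cell and platelet markers to 2.13 to 3.61, 7.74 to 8.57 and 9.77 to 12 CPM, in the same order. These differences move with every comparison against untreated below, the neutrophil sum also differed between the agents, and their part in the results was not tested. In bulk RNA, fewer cells of a type and less RNA per cell cannot be told apart.

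Chaperone transcripts took up less of the RNA in both treated groups. All 84 genes together held 2.73%, 2.75% and 2.75% of the counts of the untreated libraries, 1.19%, 1.20% and 1.20% with the antibody and 1.37%, 1.38% and 1.39% with MCC950. The groups did not overlap, and the untreated mean was 2.29 times the antibody mean and 1.99 times the MCC950 mean. The HSP70 family gave the greater share of it, with 1.46% ± 0.0123 in untreated, 0.517% ± 0.00439 with the antibody and 0.619% ± 0.00943 with MCC950 (SD, n = 3). The HSP90 family held 0.609% ± 0.00284, 0.226% ± 0.00144 and 0.270% ± 0.00419 in the same order. J-domain class C had a higher share in the treated groups, with 0.155% ± 0.000824 in untreated, 0.175% ± 0.00125 with the antibody and 0.177% ± 0.00339 with MCC950. Shares of counts were described and not tested.

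**Figure D1:**
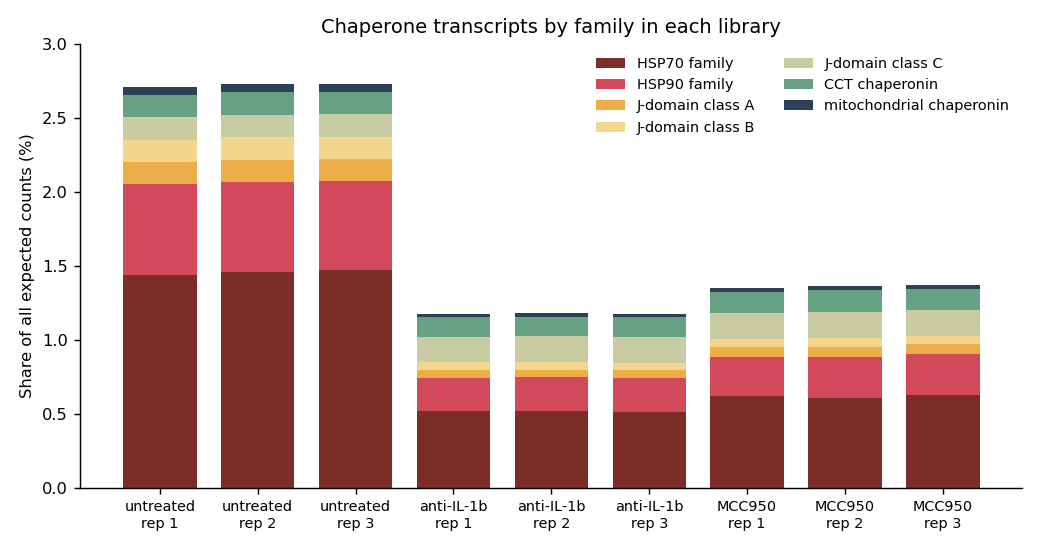
Share of all expected counts (%) held by 7 chaperone families in each of the 9 libraries, as stacked bars from 0; the small heat shock proteins, heat shock factors and genes named by the prefix alone are left out. The 3 untreated bars are close to 2.7%, and all treated bars are under 1.4%.

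With the antibody, 33 of the 71 tested chaperone genes (46.5%) were lower than in untreated, 6 (8.45%) were higher and 32 were not called. Of all 13374 tested genes, 34.0% were called in that comparison, 18.5% lower and 15.4% higher. For 36 of the 71 genes the antibody group was wholly under the untreated range, and for 9 wholly over it, against 22.8% and 20.4% of all genes. Among the lower ones, 16 chaperone genes (22.5%) were at least 2-fold lower, against 2.81% of all genes, and none was at least 2-fold higher, against 3.30%. The median log2 fold change was -0.18 over the 71 genes and 0.00 over all genes. With MCC950, 33 chaperone genes (46.5%) were lower and 6 higher, against 19.1% and 17.7% of all genes (36.8% in either direction). Of the 71, 15 (21.1%) were at least 2-fold lower and none at least 2-fold higher, against 2.84% of all genes each way, and 36 lay wholly below and 7 wholly above the untreated libraries, against 23.8% and 23.5%. The median was -0.16, against 0.01 over all genes. A call is an adjusted p under 0.05 (edgeR, quasi-likelihood, Benjamini-Hochberg over the 13374 genes). Scaling by library totals instead of TMM moved the median of all genes to 0.13 with the antibody and 0.12 with MCC950, and gave 25 lower (35.2%) and 15 higher (21.1%) chaperone genes with the antibody, against 10.0% and 29.4% of all genes under that scaling. With MCC950 it gave 24 lower (33.8%) and 15 higher (21.1%), against 11.9% and 30%. The higher share of the chaperone genes was thus under that of all genes. The falls of 2-fold or more stayed called under that scaling.

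The 16 genes at least 2-fold lower with the antibody were Dnajb4, Hsph1, Hspb1, Hspa2, Dnajb9, Hsp90aa1, Hspa1a, Dnajb1, Dnaja1, Hspa1b, Dnaja4, Hsp90ab1, Hspd1, Hspe1, Hspa5 and Hspa8, in order of the fall. With MCC950 the fold of Hspa8 was 1.95, and the other 15 were each at least 2-fold lower. These folds are of TMM-scaled counts. Per length, the MCC950 falls of Hsp90ab1 (2736 to 1446 TPM), Hspe1 (422 to 222 TPM) and Hspa5 (514 to 301 TPM) were under 2-fold. Under library totals the MCC950 value of Hspe1 was -0.93. The 16 genes span inducible and constitutive HSP70s, both cytosolic HSP90s, the mitochondrial chaperonin with its lid, an ER HSP70 with an ER J-domain partner, and cytosolic J-domain proteins of classes A and B. None was a class C J-domain gene, a CCT subunit or a heat shock factor. Hspb1 and Hspa2 had few counts, and Hspb1 passed the filter on low counts (0.577 CPM) through its untreated libraries alone, so that the filter in part required its fall.

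**Figure D2:**
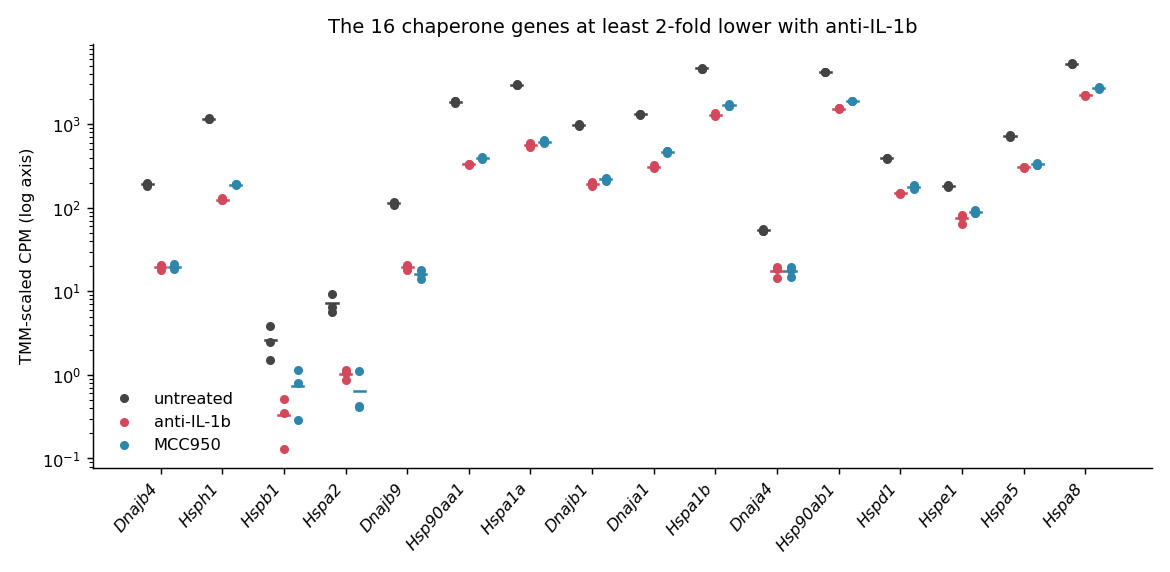
TMM-scaled CPM (log axis) of the 16 chaperone genes at least 2-fold lower with the antibody, one point per library and a dash at each group mean, ordered by the fold with the antibody. For each gene the 3 untreated points lie above all 6 treated points.

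The promoters of these genes are shown because HSF1 is known to act through elements built of the pentamer NGAAN in alternating orientation. Promoter windows of 250 bases before to 50 bases after the transcription start were taken from RefSeq (GRCm38.p6) for 68 of the 84 genes, and both strands were searched. An element of 3 adjoining pentamers in alternating orientation, that is GAA and TTC in turn with any 2 bases between them, was found for 4 of the 68 genes (5.88%), namely Hsph1, Hspd1, Hspe1 and Dnajb6, against 0.662% of the 27025 genes of the table. A looser pattern of 2 pentamers, GAA and TTC in either order with any 2 bases between them, was found for 19 (27.9%), against 17.0% of all genes of the table and 14.0% of the tested ones, and contains every element of 3. It was found for 9 of the 13 genes (69.2%) with a window that were at least 2-fold lower with either agent, and for 6 of the 45 other tested chaperone genes (13.3%). Genes of the first set had 1.54 windows each and of the second 1.27. These are counts of genes, so pairs with the same or an overlapping stretch (Hspa1a and Hspa1b, Hspd1 and Hspe1) count as 2. No window was given for Hsp90aa1, Hsp90ab1 and Hspa8. A match is a run of letters and not a measured site. The stretches follow 5′ to 3′ on the strand of the gene, with the matched pattern in capitals. For Hspd1 the capitals mark the element of 3 alone. Its last TTC also matches the pattern of 2 with the gaa that follows in lower case.
Dnajb4, chr3:152193846-152193871, minus strand: gttcgttcgctgTTCTAGAAagtaca
Hsph1, chr5:149636287-149636308, minus strand: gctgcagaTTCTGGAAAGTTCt
Hspb1, chr5:135887790-135887841, plus strand: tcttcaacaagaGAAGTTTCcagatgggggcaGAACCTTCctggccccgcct
Hspa1a, chr17:34972241-34972272, minus strand: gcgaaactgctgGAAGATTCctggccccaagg
Hspa1b, chr17:34959323-34959354, minus strand: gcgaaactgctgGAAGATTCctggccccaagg
Dnaja1, chr4:40722333-40722362, plus strand: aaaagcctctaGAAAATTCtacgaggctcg
Dnaja4, chr9:54699458-54699487, plus strand: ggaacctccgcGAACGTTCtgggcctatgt
Hspd1, chr1:55088056-55088084, minus strand: gcggggccTTCCGGAAGGTTCtagaacgg
The stretches of Hspa1a and Hspa1b are the same 32 letters at 2 places on chromosome 17, each with its first matched base at -104 from the start. Hspd1 and Hspe1 are neighbours on opposite strands, and the element found for Hspe1 overlaps that of Hspd1 at chr1:55088051-55088079. Hsph1 has 2 windows, and an element follows the start in each, at +36 (the stretch shown) and at +15. The stretches of Hsph1, Dnaja1 and Hspd1 touch an annotated exon, and the others lie outside annotated exons. Dnajb1, Dnajb9, Hspa2 and Hspa5, also at least 2-fold lower with both agents, have a window without either pattern.

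Both constitutive and inducible cytosolic HSP70s fell. Hspa8, the constitutive HSP70, had the highest level per length of all 84 genes in every group, at 3977, 4438 and 4078 TPM in the untreated libraries, 1923, 2037 and 2016 with the antibody and 2052, 1986 and 2201 with MCC950 (TPM is a level per transcript length, not scaled by TMM). It stood at 5208, 5370 and 5316 CPM in the untreated libraries, 2206, 2245 and 2261 with the antibody and 2658, 2703 and 2788 with MCC950. Every treated library was under every untreated one, and the log2 fold changes were -1.24 ± 0.02 (standard error) with the antibody and -0.96 ± 0.02 with MCC950 (edgeR, adjusted p = 1.77e-35 and 1.21e-31). Hspa1a and Hspa1b are neighbouring genes for the stress-inducible HSP70. Hspa1a stood at 2956, 2970 and 3027 CPM in the untreated libraries, 590, 580 and 535 with the antibody and 616, 594 and 651 with MCC950. Hspa1b stood at 4600, 4638 and 4757 CPM in the untreated libraries, 1346, 1281 and 1244 with the antibody and 1758, 1633 and 1663 with MCC950. The treated libraries were low for both genes without overlap. Hspa1a changed by -2.39 ± 0.03 with the antibody and -2.27 ± 0.03 with MCC950 (edgeR, adjusted p = 2.54e-25 and 6.69e-25), and Hspa1b by -1.85 ± 0.03 and -1.47 ± 0.03 (edgeR, adjusted p = 2.05e-31 and 9.61e-29). Of the 50-base words of their transcripts, 66.3% of those of Hspa1a and 62.3% of those of Hspa1b occur in another gene, the other copy first among them, so the split between them is uncertain. The sum of both genes changed by -2.04 and -1.73.

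Hsph1, an HSP110 that acts as a nucleotide exchange factor of HSP70, had the second largest fall with the antibody. It stood at 1179, 1160 and 1166 CPM in the untreated libraries, 123, 130 and 124 with the antibody and 186, 192 and 191 with MCC950. The 3 groups did not overlap, with the antibody lowest, and the log2 fold changes were -3.22 ± 0.03 and -2.62 ± 0.03 (edgeR, adjusted p = 2.02e-43 and 1.77e-41). None of its 50-base words occurs in another gene. Its relative Hspa4 stood at 220, 213 and 235 CPM in the untreated libraries, 188, 191 and 193 with the antibody and 204, 201 and 198 with MCC950, and changed by -0.23 ± 0.04 and -0.15 ± 0.04, where the MCC950 value was -0.03 and not called under library totals. Per length, the level of Hsph1 relative to Hspa4 was 9.17, 9.19 and 7.94 in the untreated libraries, 0.859, 0.863 and 0.780 with the antibody and 1.29, 1.42 and 1.41 with MCC950. Hsph1 was thus above Hspa4 in the untreated and MCC950 libraries and below it in all antibody libraries.

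In all, 8 of the 13 tested HSP70 family genes were lower and none was higher with the antibody, and 9 were lower and 1 higher (Hspa14, 0.18) with MCC950. The lower shares were 61.5% and 69.2%, against 18.5% and 19.1% of all tested genes. The higher shares were 0% and 7.69%, against 15.4% and 17.7%. The family median was -0.43 with the antibody and -0.73 with MCC950. Hspa2, known best from testis, had few counts, at 6.52, 5.69 and 9.31 CPM in the untreated libraries, 0.873, 1.16 and 1.05 with the antibody and 0.409, 0.423 and 1.1 with MCC950, and changed by -2.80 ± 0.34 and -3.46 ± 0.36. Hspa4l, another HSP110, was called lower with MCC950 (-0.30) and not with the antibody (-0.03, edgeR, adjusted p = 0.825). The MCC950 call was lost in 4 of 20 alternatives, which were library totals, TPM and the fits without untreated library 1 or MCC950 library 2. Hspa12a, Hspa13 and Hspa1l were not called in either comparison, with values of 0.40, -0.18 and -0.43 with the antibody. Hspa14, which works at the ribosome, stood at 49.8, 55.5 and 50.4 CPM in the untreated libraries, 50.9, 51.9 and 57.8 with the antibody and 56.8, 57.8 and 61.3 with MCC950. Its MCC950 call (edgeR, adjusted p = 0.0413) was lost in 6 of 20 alternatives, among them the fits without untreated library 1 or 3 or MCC950 library 2 or 3.

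Both cytosolic HSP90 genes fell with both agents. Hsp90ab1, the constitutive form, stood at 4218, 4210 and 4258 CPM in the untreated libraries, 1548, 1545 and 1536 with the antibody and 1878, 1910 and 1904 with MCC950. Hsp90aa1, the inducible form, stood at 1886, 1873 and 1813 CPM in the untreated libraries, 327, 334 and 334 with the antibody and 383, 400 and 410 with MCC950. Both were highest in all untreated libraries. The log2 fold changes were -1.45 ± 0.02 and -1.16 ± 0.02 for Hsp90ab1 (edgeR, adjusted p = 3.41e-38 and 9.10e-35) and -2.49 ± 0.03 and -2.22 ± 0.03 for Hsp90aa1 (edgeR, adjusted p = 1.90e-41 and 4.08e-40). The level of Hsp90aa1 per length relative to Hsp90ab1 was 0.510, 0.522 and 0.465 in untreated, 0.234, 0.269 and 0.267 with the antibody and 0.2, 0.218 and 0.218 with MCC950, again without overlap between untreated and treated. Of the 50-base words of Hsp90aa1, 47.5% occur in other genes, as do 39.4% of those of Hspa8.

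**Figure D3:**
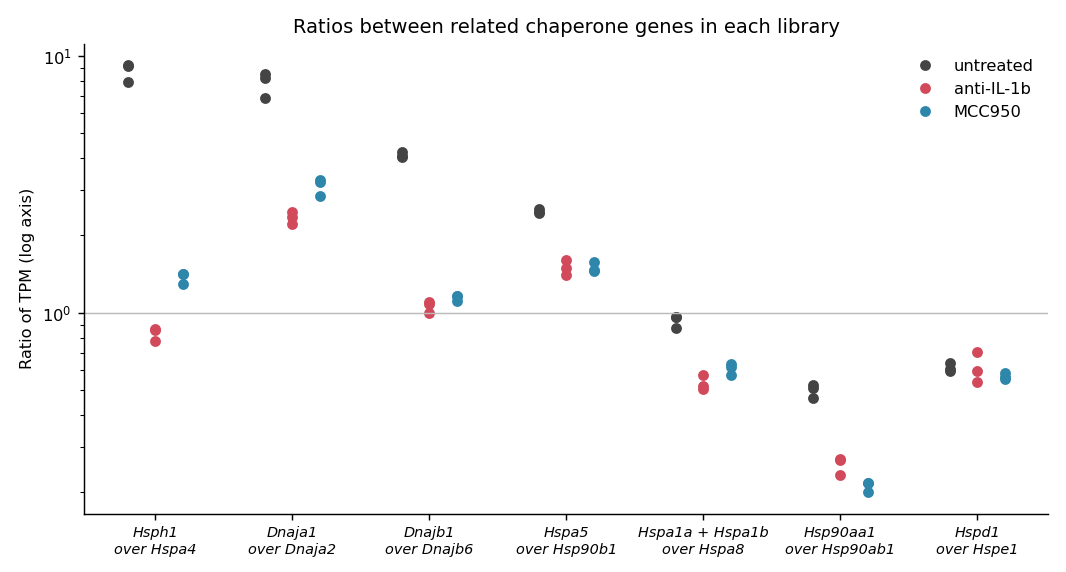
Ratio of TPM between related chaperone genes (log axis, line at a ratio of 1), one point per library. All ratios but Hspd1 over Hspe1 were lower in every treated library than in every untreated one; for that pair the untreated and antibody libraries overlapped.

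In the ER, 2 chaperone genes fell by more than 2-fold in counts with each agent. Hspa5 (BiP), the HSP70 of the ER, stood at 737, 728 and 707 CPM in the untreated libraries, 307, 310 and 300 with the antibody and 321, 328 and 344 with MCC950. Dnajb9, a J-domain protein that binds BiP, stood at 114, 118 and 109 CPM in the untreated libraries, 18, 20 and 20.8 with the antibody and 18, 13.9 and 16.2 with MCC950. Hsp90b1 (GRP94), the HSP90 of the ER, stood at 363, 360 and 351 CPM in the untreated libraries, 299, 303 and 331 with the antibody and 335, 356 and 349 with MCC950. All treated libraries were below all untreated ones for Hspa5 and Dnajb9, and for Hsp90b1 this held with the antibody but not with MCC950. The log2 fold changes were -1.25 ± 0.03 and -1.13 ± 0.03 for Hspa5, -2.54 ± 0.08 and -2.83 ± 0.08 for Dnajb9, and -0.20 ± 0.04 and -0.05 ± 0.03 for Hsp90b1. The last was called lower with the antibody (edgeR, adjusted p = 1.18e-05) and not with MCC950 (adjusted p = 0.307), and under library totals its antibody value was -0.08 and no longer called. Hspa5 had means of 514 TPM in untreated, 282 with the antibody and 301 with MCC950, so its fall per length was under 2-fold. Per length, Hspa5 was 2.54, 2.45 and 2.46 times Hsp90b1 in untreated, 1.61, 1.5 and 1.4 times with the antibody and 1.47, 1.45 and 1.57 times with MCC950. Of the 12 ER chaperone genes, 3 were lower and 3 higher with the antibody, and 4 lower and 2 higher with MCC950. These are shares of 25.0% and 25.0%, and of 33.3% and 16.7%, against the 18.5% and 15.4%, and 19.1% and 17.7%, of all genes. Dnajb11, a soluble partner of BiP, and Dnajc3, which also binds BiP, were not called, with antibody values of -0.06 and 0.00.

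Both genes of the mitochondrial chaperonin fell with both agents. Hspd1 (HSP60), which forms the chamber, stood at 399, 390 and 386 CPM in the untreated libraries, 147, 151 and 151 with the antibody and 174, 186 and 168 with MCC950. Hspe1 (HSP10), its lid, stood at 179, 187 and 183 CPM in the untreated libraries, 81.3, 64.7 and 78.2 with the antibody and 85.9, 93.5 and 87.4 with MCC950. Untreated libraries were high for both and did not overlap the treated ones. The log2 fold changes were -1.39 ± 0.04 and -1.16 ± 0.04 for Hspd1 (edgeR, adjusted p = 1.04e-28 and 3.57e-26) and -1.29 ± 0.06 and -1.04 ± 0.06 for Hspe1 (edgeR, adjusted p = 2.04e-18 and 3.39e-16). Hspa9 (mortalin), the mitochondrial HSP70, stood at 253, 254 and 238 CPM in the untreated libraries, 178, 188 and 195 with the antibody and 193, 211 and 210 with MCC950 and changed by -0.41 ± 0.04 and -0.28 ± 0.04. Of the 9 mitochondrial chaperone genes, these 3 (33.3%) were the ones called lower in each comparison, against 18.5% and 19.1% of all tested genes. With the antibody 1 (Dnajc19, 11.1%) was called higher, against 15.4% of all genes, and with MCC950 none was, against 17.7%. Of the 50-base words of Hspd1, 42.1% occur in other genes, and 22.8% of those of Hspe1, their pseudogenes and each other included, so reads of these genes may be shared.

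The CCT chaperonin, a ring of 8 different subunits that folds actin and tubulin, moved less. All 6 tested CCT genes were lower with the antibody and 4 of 6 with MCC950, with medians of -0.34 and -0.19. Of all tested genes 18.5% were lower with the antibody and 19.1% with MCC950. Cct2 stood at 354, 344 and 351 CPM in the untreated libraries, 278, 272 and 269 with the antibody and 297, 299 and 293 with MCC950, with all treated libraries below all untreated ones, and changed by -0.36 ± 0.03 and -0.24 ± 0.03 (edgeR, adjusted p = 6.29e-12 and 9.69e-08). The largest fall was that of Cct7 with the antibody, -0.40, and the smallest that of Cct5, -0.15. Cct5 and Cct8 overlapped between untreated and MCC950 (edgeR, adjusted p = 0.949 and 0.921). Under library totals the antibody calls of Cct5 and Cct8 were lost (-0.03 and -0.04), and with MCC950 Cct5 turned to 0.11 and Cct8 to 0.12, both called higher, and the call of Cct3 was lost (-0.05). The other 2 subunits of the ring are not covered by the rule. Tcp1 changed by -0.34 and -0.17, and Cct6a, whose gene record is not protein-coding in the annotation used, by -0.37 and -0.20.

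**Figure D4:**
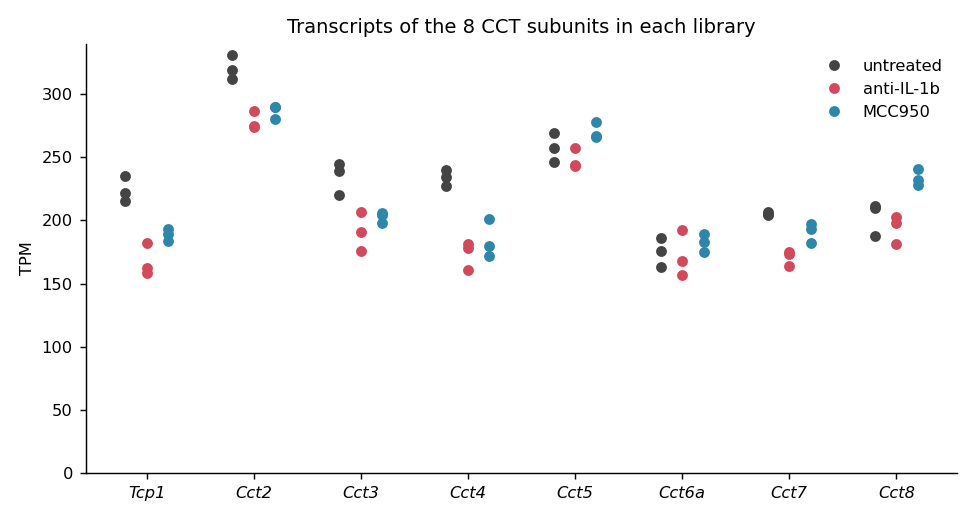
TPM of the 8 subunits of the CCT ring in each library, on an axis from 0. Mean untreated levels run from 175 TPM (Cct6a) to 321 TPM (Cct2), and the antibody means are below the untreated means for all 8. With MCC950 the means of Cct5 (270 TPM against 257), Cct6a (183 against 175) and Cct8 (234 against 203) are above the untreated ones and the other 5 below.

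J-domain proteins divide into class A and B, which resemble the bacterial DnaJ over more of their length, and class C, which share the J domain alone. In class A, 3 of 4 genes were lower with the antibody and 2 of 4 with MCC950. In class B, 6 of 11 tested genes were lower and 1 higher with the antibody, and 7 were lower with MCC950. In class C, 3 of 25 were lower and 4 higher with the antibody, and 5 were lower and 5 higher with MCC950, with medians of 0.00 and 0.01. The class C shares (12% and 16%, then 20% and 20%) were near those of all genes (18.5% and 15.4%, then 19.1% and 17.7%). No class C gene changed by 2-fold or more.

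Dnaja1, an abundant cytosolic partner of HSP70, stood at 1323, 1320 and 1290 CPM in the untreated libraries, 303, 309 and 324 with the antibody and 449, 483 and 482 with MCC950. The 3 groups did not overlap, and the log2 fold changes were -2.07 ± 0.03 and -1.48 ± 0.03 (edgeR, adjusted p = 1.09e-37 and 6.83e-33). Its relative Dnaja2 changed by -0.24 ± 0.05 with the antibody and -0.10 ± 0.04 with MCC950 (the antibody call was lost under library totals, at -0.11), and Dnaja3, which is mitochondrial, was not called in either. Dnaja1 exceeded Dnaja2 per length 6.84, 8.18 and 8.47 times in untreated, 2.47, 2.21 and 2.36 times with the antibody and 2.85, 3.30 and 3.22 times with MCC950. Dnaja4 stood at 52.4, 52.1 and 56.3 CPM in the untreated libraries, 19.6, 14.4 and 18.7 with the antibody and 14.7, 19.8 and 18.2 with MCC950, with all treated libraries below all untreated ones, and changed by -1.61 ± 0.10 and -1.61 ± 0.10. Of its 50-base words 42.7% occur in another gene, Wdr61 on the opposite strand, and whether counting kept the strands apart is not stated in the labels. Dnajb13 likewise overlaps Ucp2, and Dnajc14 overlaps Ormdl2.

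Dnajb1, the main stress-inducible partner of HSP70, stood at 975, 965 and 998 CPM in the untreated libraries, 184, 205 and 189 with the antibody and 221, 225 and 209 with MCC950. Dnajb4, a close relative, stood at 183, 197 and 195 CPM in the untreated libraries, 18, 19.9 and 20.6 with the antibody and 19.4, 18.7 and 21.1 with MCC950. Treated libraries of both agents were far below untreated ones, by 9.83-fold and 9.71-fold for Dnajb4, the largest fall with the antibody. The log2 fold changes were -2.34 ± 0.04 and -2.17 ± 0.03 for Dnajb1 (edgeR, adjusted p = 1.70e-37 and 2.26e-36) and -3.30 ± 0.07 and -3.28 ± 0.07 for Dnajb4 (edgeR, adjusted p = 3.16e-33 and 2.26e-33). Dnajb6, which restrains protein aggregation, stood at 117, 113 and 111 CPM in the untreated libraries, 99.5, 103 and 93.4 with the antibody and 98.6, 99.7 and 100 with MCC950 and changed by -0.21 ± 0.05 and -0.19 ± 0.05. Under library totals both values were -0.08 and not called. The level of Dnajb1 per length was 4.09, 4.04 and 4.24 times that of Dnajb6 in untreated, 0.997, 1.10 and 1.08 times with the antibody and 1.16, 1.16 and 1.11 times with MCC950. Dnajb2 (-0.55 and -0.25) and Dnajb13 (-0.99 and -0.79) were also lower with both agents, and Dnajb12 with MCC950 (-0.31). The MCC950 call of Dnajb2 was lost in 6 of 20 alternatives, among them the fits without untreated library 2 or MCC950 library 2 or 3. That of Dnajb13 was lost without untreated library 2 and on TPM (to -0.25), where its antibody call was lost too (-0.40). That of Dnajb12 was lost under library totals and on TPM.

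**Figure D5:**
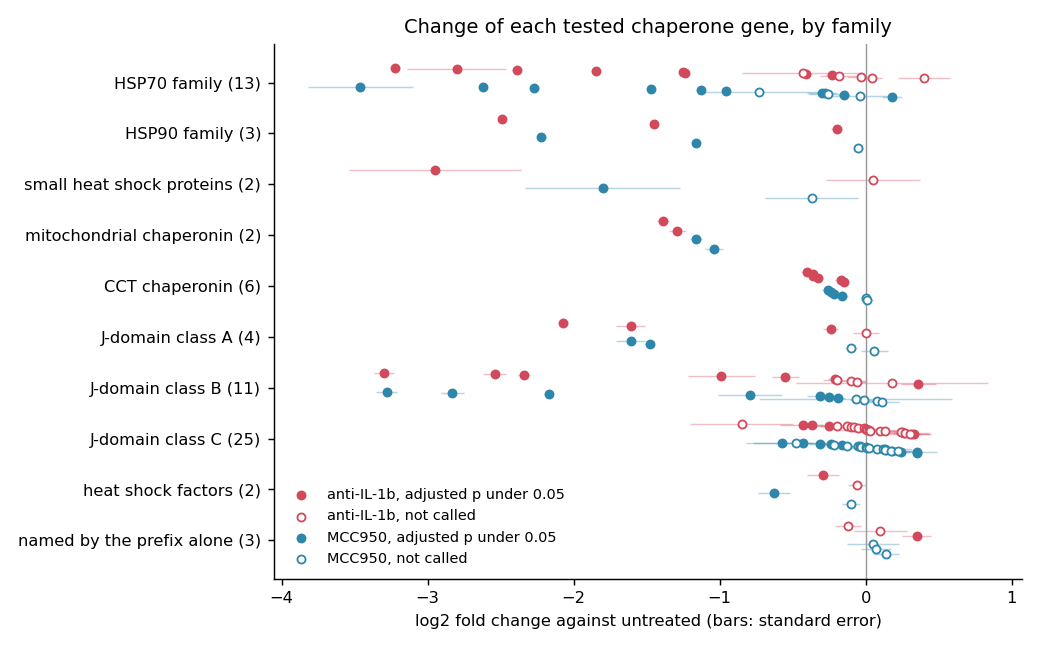
Log2 fold change against untreated of the 71 tested chaperone genes by family, with the number tested in brackets, for the antibody (red) and MCC950 (blue). Filled points have an adjusted p under 0.05 and bars are standard errors. Points past -1 lie in the HSP70, HSP90, small heat shock protein, mitochondrial chaperonin and J-domain A and B rows.

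The rises were small. With the antibody they were Dnajb14 (0.36 ± 0.12), Hspbap1 (0.35 ± 0.10), Dnajc19 (0.33 ± 0.12), Dnajc1 (0.32 ± 0.06), Dnajc10 (0.26 ± 0.07) and Dnajc7 (0.25 ± 0.03). With MCC950 they were Dnajc24 (0.35 ± 0.14), Dnajc7 (0.35 ± 0.03), Dnajc1 (0.24 ± 0.06), Dnajc10 (0.18 ± 0.07), Hspa14 (0.18 ± 0.07) and Dnajc14 (0.14 ± 0.05). Dnajc7, which binds HSP70 and HSP90 at once, had the smallest p of the 6 in each comparison. It stood at 319, 307 and 312 CPM in the untreated libraries, 373, 374 and 367 with the antibody and 394, 412 and 388 with MCC950, and all treated libraries were above all untreated ones (edgeR, adjusted p = 3.89e-08 and 8.79e-12). Dnajc1, an ER membrane protein at the ribosome, stood at 56.1, 64.7 and 62.5 CPM in the untreated libraries, 75.4, 76.1 and 77.8 with the antibody and 74.3, 70.7 and 71.3 with MCC950, and its treated libraries were also all above the untreated ones. Dnajc10, an ER reductase of disulfides, stood at 58.1, 61.5 and 55.6 CPM in the untreated libraries, 71.5, 61.3 and 77.8 with the antibody and 63.5, 68.8 and 66.4 with MCC950. Its antibody libraries reached down to the untreated range.

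The other rises were in genes of varied place and function. Dnajb14, in the ER membrane, stood at 18.5, 16.6 and 16.5 CPM in the untreated libraries, 20.7, 19.4 and 26.3 with the antibody and 18.7, 19.1 and 17.9 with MCC950. Dnajc19, of the mitochondrial inner membrane, stood at 13.8, 15.3 and 14.8 CPM in the untreated libraries, 21.5, 16.6 and 16.8 with the antibody and 16.6, 17.6 and 16.8 with MCC950. Per length its rise was not seen, with means of 35.1 TPM in untreated, 35.8 with the antibody and 32.0 with MCC950. Its antibody call was lost in 6 of 20 alternatives, among them TPM and the fits without any one of the untreated libraries. Dnajc24, a factor of diphthamide synthesis, stood at 9.39, 8.95 and 9.73 CPM in the untreated libraries, 11.6, 11.5 and 11.5 with the antibody and 11.4, 12.1 and 12.2 with MCC950. For these 3 genes each group called higher lay wholly above the untreated one. Hspbap1, named for its binding to HSPB1, stood at 24, 25.9 and 26.1 CPM in the untreated libraries, 30.3, 30.3 and 36.4 with the antibody and 24.5, 26.7 and 28.8 with MCC950. Dnajc14 stood at 108, 99.3 and 107 CPM in the untreated libraries, 103, 97.8 and 103 with the antibody and 110, 122 and 113 with MCC950. Under the alternatives tried, Dnajc1 and Dnajc7 stayed called with the antibody, and Dnajc7 alone of the 6 with MCC950. Leaving out the third antibody library left 3 rises with the antibody. With MCC950, 3 rises were left without the third untreated library, 2 without the second MCC950 library and 3 without the third MCC950 library.

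Class C genes called lower had varied roles. With the antibody they were Dnajc21, of ribosome assembly (-0.37), Dnajc6, auxilin of clathrin uncoating (-0.43), and Dnajc9, a histone chaperone (-0.25). With MCC950 they were these genes (-0.31, -0.43 and -0.16), Dnajc8, of the spliceosome (-0.24), and Dnajc25 (-0.57). Several of these calls were lost when 1 library was left out. Dnajc6 lost its antibody call in 10 of 20 alternatives, among them the fits without untreated library 1 or 3, antibody library 1 or MCC950 library 3, and its MCC950 call in 7, among them those without untreated library 3 or any 1 of the MCC950 libraries. Dnajc9 lost its MCC950 call in 10 of 20, including the fit without any 1 of the untreated or MCC950 libraries, and its antibody call under library totals and on TPM. Dnajc25 lost its call in 5 of 20, among them the fits without untreated library 2 or 3 or MCC950 library 2. Dnajc21 and Dnajc8 lost theirs on TPM alone. Among class C genes not called in either comparison were Dnajc5, the cysteine string protein, at 0.01 and 0.02, and Dnajc13, of endosomes, at -0.01 with the antibody.

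The transcript of the main heat shock factor was not called in any comparison. Hsf1 stood at 84.2, 92.6 and 85.8 CPM in the untreated libraries, 87.6, 81.2 and 83 with the antibody and 87.9, 80.5 and 77.2 with MCC950. The groups overlapped, and the log2 fold changes were -0.06 ± 0.06 and -0.10 ± 0.06 (edgeR, adjusted p = 0.452 and 0.189). Hsf2, a second heat shock factor, stood at 25.3, 25.5 and 27.3 CPM in the untreated libraries, 21.1, 24.2 and 18.7 with the antibody and 15.2, 19.1 and 16.1 with MCC950. All treated libraries lay below all untreated ones, with MCC950 lower in mean, and the changes were -0.29 ± 0.11 and -0.63 ± 0.11 (edgeR, adjusted p = 0.0414 and 1.72e-05). The antibody call of Hsf2 was lost in 10 of 20 alternatives, where its value ran from -0.39 to -0.05. These included the fits without any one of the 3 untreated libraries, antibody library 1 or 3, or MCC950 library 3, whereas the MCC950 call held in all 20. Transcript levels say nothing of the activity of HSF1 protein.

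Small heat shock proteins had very few counts. Hspb1 (HSP25) stood at 1.52, 3.86 and 2.46 CPM in the untreated libraries, 0.349, 0.516 and 0.131 with the antibody and 0.292, 0.792 and 1.15 with MCC950, with untreated libraries highest, and changed by -2.95 ± 0.59 and -1.80 ± 0.53 (edgeR, adjusted p = 1.02e-04 and 0.00631). Without the second untreated library the MCC950 call was lost, with an adjusted p of 0.0932. Of its 50-base words 50.1% occur in other genes, its pseudogene among them. Hspb6 was not called, at 0.05 and -0.37. The 13 genes that did not enter the test were Cct6b, Cct8l1, Dnajb3, Dnajb8, Dnajc22, Dnajc5b, Dnajc5g, Hspa12b, Hspb2, Hspb3, Hspb7, Hspb8 and Hspb9. Of these, 8 had no count in any library, and the highest single count among the other 5 was 13, for Hspa12b.

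The order of chaperone transcripts per length shifted with treatment. In untreated cells 6 chaperone genes had a mean of at least 1000 TPM, namely Hspa8, Hsp90ab1, Hspa1b, Hspa1a, Hsp90aa1 and Dnaja1, with means of 4164, 2736, 2425, 1459, 1365 and 1082 TPM. With either agent 2 were at that level, Hspa8 (1992 and 2080 TPM) and Hsp90ab1 (1214 and 1446 TPM). Hsph1 went from place 7 of the 84 in untreated to place 25 with the antibody and 19 with MCC950, and Dnajb1 from place 9 to 21 and 22. Hspa1a and Hsp90aa1 lay within 2 places of each other in each group, and their means were 310 and 311 TPM with the antibody and 324 and 307 TPM with MCC950.

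Between the agents, 22 of 71 chaperone genes (31.0%) were lower with the antibody than with MCC950 and 3 (4.23%) were higher, against 7.11% and 6.13% of all tested genes. None of those called differed by 2-fold, against 0.202% of all genes lower and 0.381% higher by that much (13.2% called either way). The antibody libraries lay wholly below the MCC950 libraries for 27 of the 71 and wholly above for 11, against 15.4% and 14.0% of all genes. By the rule on size the largest differences were those of Dnaja1 (-0.60 ± 0.03), Hsph1 (-0.59 ± 0.03), Hspa1b (-0.38 ± 0.03) and Hsp90ab1 (-0.30 ± 0.02), and in each the 3 antibody libraries lay below the 3 MCC950 libraries (edgeR, adjusted p = 7.73e-18, 2.65e-17, 3.67e-12 and 6.63e-14). Hspa8 (-0.28), Hsp90aa1 (-0.26), Hspd1 (-0.23), Hspe1 (-0.25) and 5 of the 6 CCT genes were also lower with the antibody. Of these, all but Cct8 lost the call on TPM. Of the 22 lower calls, 5 held under every alternative, those of Dnaja1, Hsph1, Hspa1b, Hsp90ab1 and Cct8. Leaving aside library totals and TPM, 14 held. With limma-trend on log2(TPM + 1) 5 of the 71 (7.04%) were called lower and 0 higher, against 1.66% and 2.88% of all genes in that fit, and Hsp90aa1 turned to 0.02. Dnajb4 and Dnaja4 were not called, at -0.02 and 0.00. The higher ones were Hsf2 (0.34 ± 0.11), Dnajb9 (0.29 ± 0.09) and Hspbap1 (0.28 ± 0.10), and each of these 3 calls was lost under some alternative. Leaving out antibody library 2 or 3, or any one of the 3 MCC950 libraries, left 1 higher call.

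The mean transcript length that goes with a gene's counts, which shifts when other isoforms are used, moved for some chaperone genes. For Hsph1 it was 1912, 1871 and 1890 bases in untreated, 2396, 2453 and 2616 with the antibody and 2159, 2340 and 2422 with MCC950, longer in all treated libraries. For Hspa5 it was 2064, 2154 and 2127 bases in untreated, 1811, 1859 and 1868 with the antibody and 1788, 1818 and 1790 with MCC950, shorter in all treated libraries. For Dnajc19 it was 779, 769 and 801 bases in untreated, 957, 941 and 1082 with the antibody and 1039, 974 and 968 with MCC950. A shift of at least 10% without overlap of the libraries was seen for 9 of 71 genes (12.7%) with the antibody and 7 of 71 (9.86%) with MCC950, against 5.63% and 5.65% of all tested genes. These lengths are estimates from short reads and were described, not tested.

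Other genes of the same pathways were counted in the same way, beside the shares of all genes called lower and higher (18.5% and 15.4% with the antibody, 19.1% and 17.7% with MCC950). Of 27 co-chaperones of HSP70 and HSP90, 11 were lower and 3 higher with the antibody, and 9 lower and 6 higher with MCC950, with medians of -0.11 and -0.06 (40.7% and 11.1%, then 33.3% and 22.2%). Bag3, an exchange factor of HSP70, fell from a mean of 84.0 CPM in untreated to 8.81 with the antibody and 10.1 with MCC950, log2 fold changes of -3.25 and -3.06 (edgeR, adjusted p = 2.71e-25 and 6.54e-25). Stip1 (HOP), which links HSP70 to HSP90, changed by -0.98 and -0.64, and the HSP90 co-chaperones Ahsa1 and Ptges3 (p23) by -1.04 and -0.72 and by -1.09 and -0.72. Of 10 partners of CCT, Tcp1 and the prefoldins among them, 4 (40.0%) were lower with the antibody and 2 (20%) lower and 3 (30%) higher with MCC950. Pfdn5 changed by -0.26 and -0.12, Pfdn2 by -0.37 and -0.13, and Txndc9 by 0.02 and 0.29. Of 20 ER folding and unfolded protein response genes 7 (35.0%) were lower and none higher with the antibody, and 6 (30%) lower and 4 (20%) higher with MCC950. Herpud1, of ER-associated degradation, changed by -0.97 and -0.78, the transcription factor Xbp1 by -0.89 and -0.70, and Ddit3 (CHOP) by -0.96 and -0.82. Of 12 mitochondrial quality control genes, 1 (8.33%) was lower and 3 (25.0%) higher with the antibody and 2 (16.7%) lower and 5 (41.7%) higher with MCC950, with medians of 0.06 and 0.12. Yme1l1 changed by -0.22 and -0.27, Spg7 by 0.15 and 0.33, Grpel2 by 0.32 and 0.34, and Htra2 by 0.28 and 0.37. Of 7 ubiquitin and autophagy stress genes 5 (71.4%) were lower with each agent, led by Ubb, a polyubiquitin gene, at means of 2006, 993 and 941 CPM. Gadd45b and Gadd45a of that list changed by -2.70 and -2.89 and by -1.65 and -1.61. Of 3 further genes tested beside the heat shock factors, Dedd2 changed by -1.32 and -1.01, and its link to these factors was not tested. Hsbp1, a binding protein of HSF1, changed by 0.02 and 0.20. The heat shock factor gene Hsf4, with few counts, changed by 0.35 and 0.30 and was not called.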

How the data were processed

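Poly(A) RNA of 9 libraries, 3 per group, was grouped by the labels. Per the submitters' processing notes, the authors used STAR, RSEM and mm10; versions are not named there. The deposited values hold, per the file headers, RSEM expected counts per gene without normalization (RSEM splits a read between the genes it matches), TPM scaled per length and library total, the mean transcript length weighted by abundance, and FPKM, which was not used. Strand handling is not given in the labels.

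Symbols, positions and biotypes came from GENCODE M21 (99.5% of IDs had a symbol). The members and lists were chosen with earlier results of these data known. Expected counts were rounded and tested with edgeR 4.0.16 (R 4.3.3): filterByExpr, TMM scaling, one robust quasi-likelihood fit of 3 group means over 9 libraries, two-sided, Benjamini-Hochberg over 13374 genes, threshold 0.05. The standard error was taken as the absolute log2 fold change over the square root of F. Among called members whose mean log2 CPM reached 2, the 12 largest falls and 6 largest rises per agent and 4 each way between agents were named, beside a fixed set of known chaperones and up to 4 genes of smallest p per other list; further members were named after their values were seen. The fit was tested on simulated counts. Alternatives used DESeq2 1.42.0, limma 3.58.1, other scalings and filters, a replicate block and single libraries left out. Shared 50-base words were counted over the annotated transcripts. Planned protein features were not run, as no protein table was used here.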

Additional observations from a re-analysis of the deposited data

How the results depend on the processing

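Other scalings (RLE, upper quartile, library totals), 2 other filters, DESeq2, limma-voom, limma-trend on log2(TPM + 1), fits of 6 libraries, each library left out and, chosen after seeing the data, TMM without the chaperone genes were tried. Of the single-gene values 3876 kept their direction and side of the threshold, 164 changed sign with no call in either fit, 177 lost and 33 gained a call, and 3 reversed. Library totals gave 15 higher chaperone genes with each agent, turned the 2479 lower and 2066 higher of all genes with the antibody into 1344 and 3929 and the 2552 and 2369 with MCC950 into 1587 and 4009, and reversed Dnajc13 with the antibody to 0.12 and Cct5 with MCC950 to 0.11. With limma-trend on TPM, 837 of all genes were lower with the antibody and 1070 with MCC950, 3185 were called with MCC950 and 581 between the agents (212 lower, 369 higher), where 5 chaperone genes were lower and 0 higher and Hsp90aa1 reversed to 0.02. With limma-voom 1 was higher there. Leaving out 1 library gave 3 to 6 higher chaperone genes with the antibody, 2 to 6 with MCC950 and 1 to 3 between the agents, and 31 to 34, 28 to 33 and 17 to 22 lower. The cause of these changes was not tested. The pattern of 2 pentamers gave 19 genes in place of 4. The counts of chaperone genes lower with each agent than in untreated stayed within 1.5 times of 33 under the alternatives run, and TMM without the chaperone genes gave the same counts of members.

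The labels number the libraries 1 to 3 in each group and do not say whether the numbers pair them. Deviations of same-numbered libraries of different groups correlated at -0.01 to 0.063, and those of differently numbered ones at -0.057 to 0.025. Values this small do not settle whether the numbers pair the libraries. With the replicate block, 33, 33 and 22 chaperone genes were lower and 6, 5 and 3 higher (antibody, MCC950, and antibody against MCC950 in turn), and 4483, 4855 and 1704 of all genes were called. Depth limits genes with few counts, such as Hspb1, at under 4 CPM in every library, and Dnajb7, at under 1.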
